A study of Sus scrofa with 6 samples.

Results

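Nitric oxide (NO) signals in the heart through cyclic GMP (cGMP). NO synthases make NO from arginine, asymmetric dimethylarginine inhibits them, and dimethylarginine dimethylaminohydrolases remove this inhibitor. NO binds the heme of soluble guanylate cyclase, a heterodimer of an alpha and a beta subunit, which then makes cGMP. cGMP activates cGMP-dependent protein kinase I, which relaxes vascular smooth muscle and phosphorylates proteins of the cardiomyocyte, and phosphodiesterases end the signal by hydrolysing cGMP.

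The genes described here were chosen by name from this pathway, with earlier results of these data known. They were the NO synthases NOS1, NOS2 and NOS3, the dimethylaminohydrolases DDAH1 and DDAH2, and the cyclase subunits GUCY1A1 and GUCY1B1. The kinase PRKG1 and the phosphodiesterases PDE5A and PDE9A completed the list. Of these 10 genes, 9 had a row among the 13288 genes of the deposited table, and all 9 passed the filter on low values. NOS1, the neuronal synthase, had no row and was not analysed here. The table lists genes with at least 0.5001 FPKM (fragments scaled by transcript length and library size) in the highest sample. Heart muscle genes such as MYH6, PLN, TTN and MB also had no row, so a missing row was not read as a low level.

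RNA was sequenced from ventricular tissue of Tibetan minipigs, with 3 in the sham group and 3 in the DAC group. In the DAC (descending aortic constriction) group, sutures narrowed the descending thoracic aorta so that the left ventricle worked against a raised pressure. The sham group had the chest opened without constriction. Cardiac tissue of both groups was taken at week 12 after surgery per the study's methods. The animals were male per the study's methods, their age and the ventricle sampled were not given in the sources used here, and each column of the table is 1 minipig. Sham minipigs carry the replicate numbers 1, 2 and 3, and DAC minipigs the numbers 4, 5 and 6.

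The tissue expressed the genes of ventricular muscle. Of 10 cardiomyocyte markers, 8 had a row, and their summed level was between 14416 and 15119 FPKM in the sham group and between 13596 and 16648 FPKM in the DAC group. MYH6 and PLN had no row. RYR2 averaged 366 ± 66.5 FPKM (SD, n = 3) in sham minipigs and 274 ± 37.5 FPKM (SD, n = 3) in DAC minipigs. It was the 1 marker of this list that passed the limma test described below (unadjusted P = 0.0464). The share of mitochondrially encoded genes in all FPKM ranged from 24.0% to 25.3% over the sham samples, was 27.2% and 27.1% in DAC replicates 4 and 6, and reached 32.8% in DAC replicate 5. The number of reads behind each value is not known, so precision is given by the spread between minipigs alone.

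Levels were compared as log2(FPKM + 1) with limma's moderated test in 11029 genes. Genes with an unadjusted P under 0.05 are called differentially expressed genes (DEGs) below, by the threshold the study used. They made up 8.51% of all genes tested, with 3.25% upregulated and 5.27% downregulated in the DAC group. After Benjamini-Hochberg adjustment of the limma P values, 0 genes stayed under 0.05, against 939 before it, and the lowest adjusted P was 0.106. A fold change below is a difference in mean log2(FPKM + 1), DAC minus sham, a scale that compresses differences where FPKM is low.

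Of the 9 NO and cGMP genes, 3 were DEGs (33.3%, against 8.51% of all genes tested), and the count fell to 1 without DAC replicate 4 or 5. GUCY1A1 and PDE5A were upregulated in the DAC myocardium, and NOS3 was downregulated. GUCY1B1, PRKG1, PDE9A, NOS2, DDAH1 and DDAH2 did not pass the test. The groups did not overlap in GUCY1A1 and PDE5A, 2 of the 9 genes, with the DAC group higher in both. Over all genes tested the groups did not overlap in 14.9%, with the DAC group higher in 6.01% and lower in 8.91%. The median log2 fold change of the 9 genes was 0.09, against -0.02 over all genes tested.

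**Figure D1:**
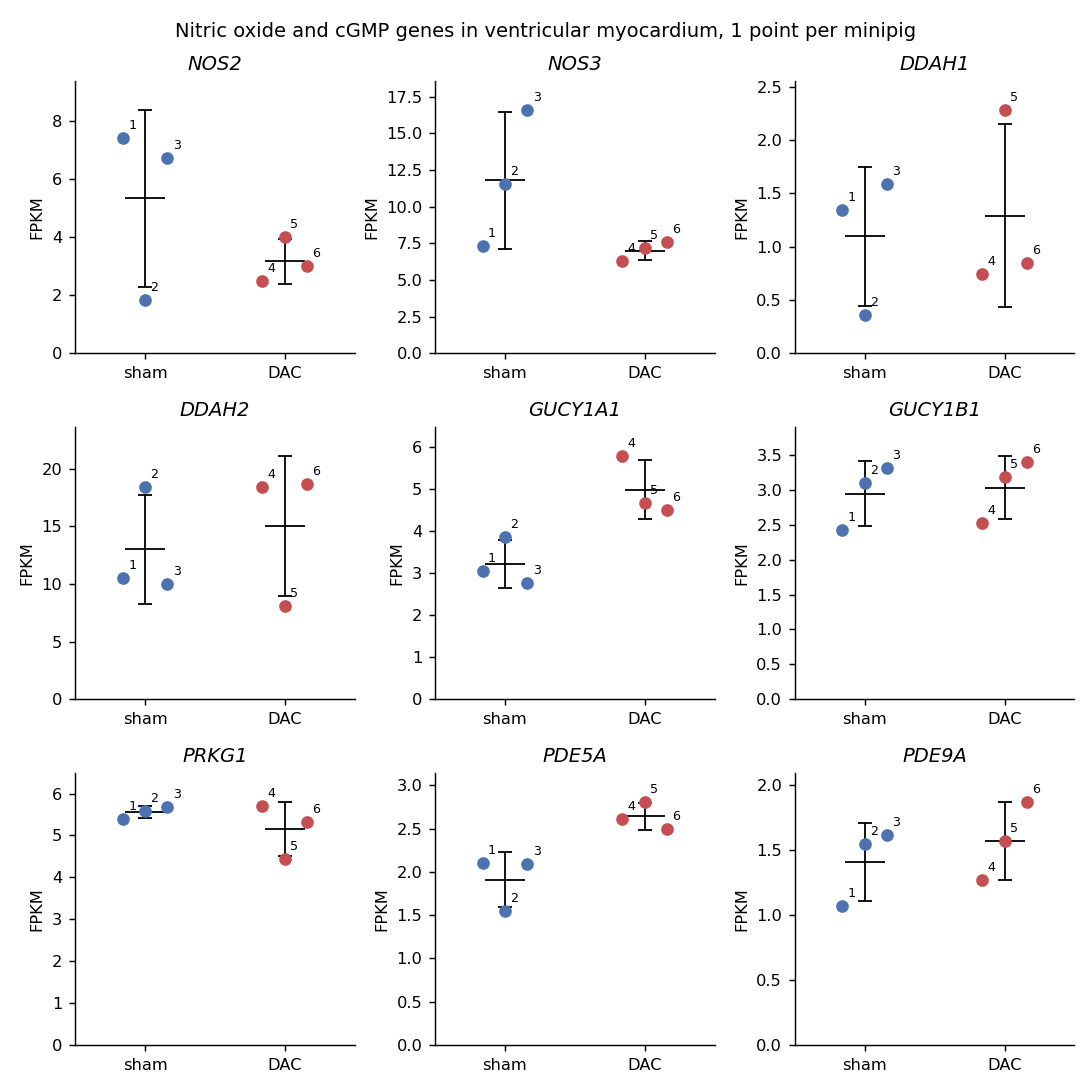
FPKM of the 9 NO and cGMP genes (vertical axes, each from 0) in the sham and DAC groups, with 1 point per minipig labelled by its replicate number, and the mean and SD of 3 minipigs as black lines. All DAC points lie above all sham points in GUCY1A1 and PDE5A, and the DAC points of NOS3 lie between 6.31 and 7.56 FPKM at the lower end of the sham points.

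**Figure D2:**
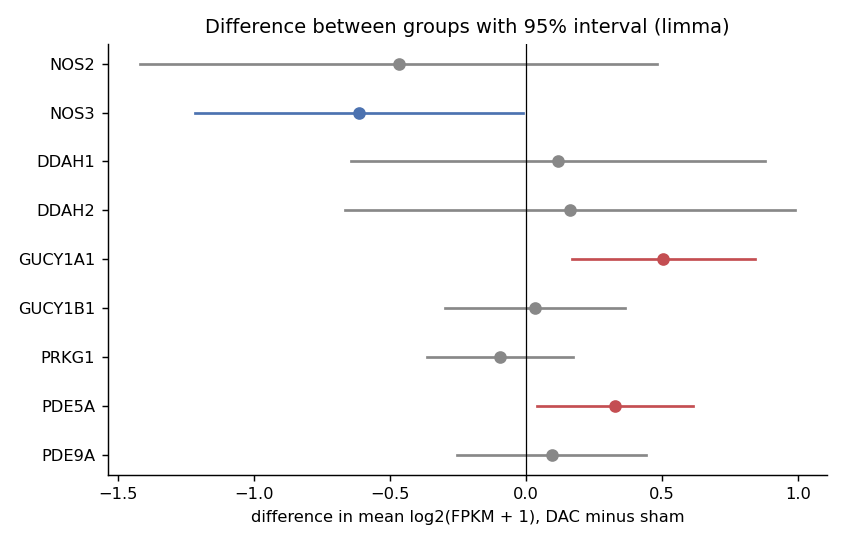
Difference in mean log2(FPKM + 1) between the DAC and sham groups (horizontal axis) for the 9 genes, with the 95% interval from limma as a line. Red marks upregulated and blue downregulated DEGs at an unadjusted P under 0.05, and the intervals of the 6 genes in gray include 0.

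FPKM is scaled by transcript length, so levels can be set side by side between genes. In the sham group, DDAH2 had the highest mean level, 13.0 ± 4.73 FPKM (SD, n = 3), followed by NOS3, PRKG1, NOS2, GUCY1A1, GUCY1B1, PDE5A and PDE9A, and DDAH1 had the lowest, 1.10 ± 0.651 FPKM (SD, n = 3). Neighbours in this order overlapped between minipigs, except that every sham value of NOS3 was above every sham value of PRKG1 and every sham value of GUCY1B1 was above every sham value of PDE5A. In the DAC group, GUCY1A1 stood above NOS2 without overlap. By the mean over all 6 samples, DDAH2 was at percentile 79.6 of the genes in the table and DDAH1 at percentile 20.2.

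NOS3 (ENSSSCG00000016450, chromosome 18 from 6209156 to 6228938, minus strand, Sscrofa11.1) encodes the endothelial NO synthase. Its level was 7.29, 11.5 and 16.6 FPKM in sham replicates 1, 2 and 3, and 6.31, 7.15 and 7.56 FPKM in DAC replicates 4, 5 and 6. The sham values were spread widely, the DAC values were close together, and sham replicate 1 lay within the range of the DAC group. Sham minipigs averaged 11.8 ± 4.65 FPKM (SD, n = 3) and DAC minipigs 7.003 ± 0.636 FPKM (SD, n = 3). NOS3 had a log2 fold change of -0.61 (SE 0.26, unadjusted P = 0.0474, adjusted P = 0.585 from limma), with a 95% interval from -1.22 to -0.0092. The downregulation was not called after leaving out sham replicate 2 (log2 fold change -0.60, unadjusted P = 0.1004), sham replicate 3 (-0.35, unadjusted P = 0.130), DAC replicate 4 (-0.55, unadjusted P = 0.125), DAC replicate 5 (-0.63, unadjusted P = 0.0858) or DAC replicate 6 (-0.66, unadjusted P = 0.0710) in the same limma fit. Without sham replicate 1 it was -0.89 (unadjusted P = 0.00231).

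NOS3 is made mainly by endothelial cells, and other endothelial markers moved in both directions. All 12 endothelial markers were tested, of which 3 were downregulated and 2 upregulated DEGs, and their median log2 fold change was -0.24. CLDN5, a tight junction protein, averaged 13.1 ± 5.29 FPKM (SD, n = 3) in sham minipigs and 4.93 ± 1.70 FPKM (SD, n = 3) in DAC minipigs, a log2 fold change of -1.22 (adjusted P = 0.482 from limma). ROBO4, an endothelial guidance receptor, had a log2 fold change of -0.75, and VWF, the von Willebrand factor, of -0.49. KDR, the main VEGF receptor, had a log2 fold change of 0.60 and EMCN, a sialomucin, of 0.39, both upregulated. PECAM1 and CDH5, which define endothelium, had log2 fold changes of -0.26 and -0.22 that did not pass the test.

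The summed level of the 12 markers was 203, 283 and 290.3 FPKM in the sham samples and 198, 173 and 258 FPKM in the DAC samples, so the groups overlapped. Sham replicate 1, with the lowest NOS3 of its group, also had the lowest sum of its group. In the DAC group this was not so: replicate 5 had the lowest sum and replicate 4 the lowest NOS3. When every sample was divided by this sum, the log2 fold change of NOS3 was -0.33 (unadjusted P = 0.243 from limma), while the median over all genes tested shifted to 0.24. When the sum left out CLDN5, ROBO4 and VWF, NOS3 was at -0.47 (unadjusted P = 0.106 from limma) and the median over all genes at 0.11. The 3 markers left out were the downregulated DEGs among the 12, and the upregulated KDR and EMCN were kept. These scalings were chosen after seeing the data. In bulk tissue, fewer cells of a type and less RNA per cell cannot be told apart.

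**Figure D3:**
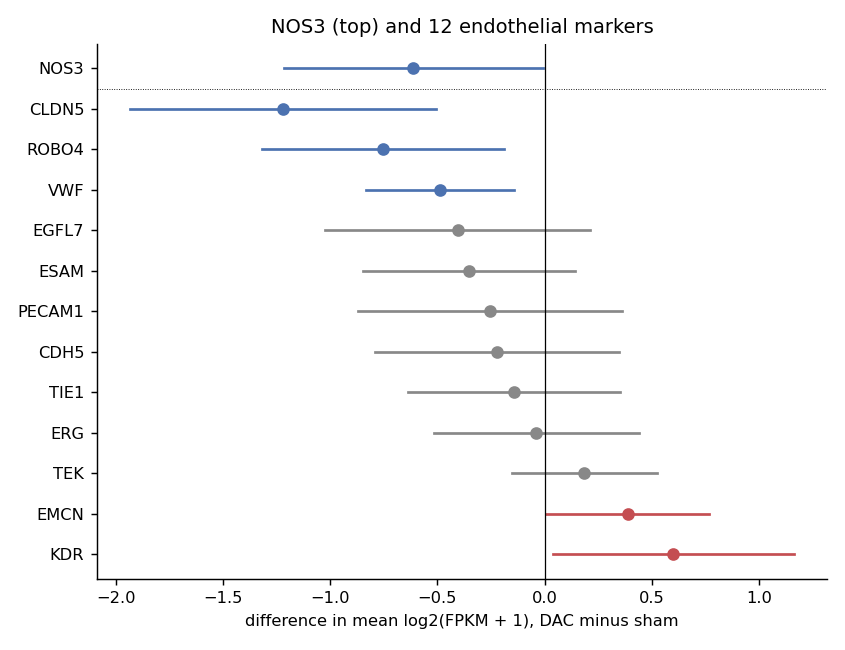
Difference in mean log2(FPKM + 1), DAC minus sham (horizontal axis), for NOS3 in the top line and for the 12 endothelial markers below the dotted line, with 95% intervals from limma. Blue marks downregulated and red upregulated DEGs: NOS3, CLDN5, ROBO4 and VWF lie to the left of 0, and EMCN and KDR to the right.

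NOS2 (ENSSSCG00000017755, chromosome 12 from 44174944 to 44327111, minus strand) encodes the inducible synthase, which immune signals switch on. Its level was 7.42, 1.85 and 6.71 FPKM in sham replicates 1, 2 and 3, and 2.48, 4.005 and 3.00 FPKM in DAC replicates 4, 5 and 6. Sham replicate 2 was the lowest and the other 2 sham samples were the highest of the 6, so the groups overlapped. NOS2 differed by -0.47 on the log2 scale (SE 0.40, adjusted P = 0.755 from limma), with a 95% interval from -1.42 to 0.48. Without sham replicate 2 it was -0.97 and called (unadjusted P = 0.00156).

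The NOS2 values carry a limit of annotation. The deposited gene spans 152 kb, against 44.9 kb for NOS2 in RefSeq, and its further part holds LYRM9 (ENSSSCG00000032450, from 44271525 to 44289643) on the same strand. LYRM9 was at 18.7, 11.8 and 13.8 FPKM in the sham samples and 0.686, 0.491 and 17.2 FPKM in DAC replicates 4, 5 and 6. How reads in this shared stretch were assigned is not given in the sources used here, so the NOS2 level is uncertain.

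DDAH1 and DDAH2 encode the enzymes that hydrolyse asymmetric dimethylarginine. DDAH2 (ENSSSCG00000038514, chromosome 7 from 23838993 to 23842516, minus strand) was at 10.5, 18.5 and 10.03 FPKM in sham replicates 1, 2 and 3, and at 18.4, 8.06 and 18.7 FPKM in DAC replicates 4, 5 and 6. DDAH1 (ENSSSCG00000040735, chromosome 4 from 130483878 to 130617531, plus strand) was at 1.35, 0.360 and 1.59 FPKM in the sham samples and at 0.746, 2.28 and 0.845 FPKM in the DAC samples. Across the 6 minipigs the paralogs ran opposite to each other: sham replicate 2, DAC replicate 4 and DAC replicate 6 had the 3 highest DDAH2 and the 3 lowest DDAH1 levels. This split crossed the groups, each of which held samples of both kinds. NOS2 followed the same split: sham replicate 2, DAC replicate 4 and DAC replicate 6 had its 3 lowest levels.

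Neither DDAH gene passed the test. On the log2 scale the difference was 0.16 for DDAH2 (95% interval from -0.67 to 0.99, adjusted P = 0.912 from limma) and 0.12 for DDAH1 (95% interval from -0.64 to 0.88, adjusted P = 0.935). The sign depended on single samples: DDAH2 was at -0.019 without DAC replicate 4 and -0.028 without DAC replicate 6, and DDAH1 was at -0.17 on leaving out either sham replicate 2 or DAC replicate 5. The DDAH2 to DDAH1 ratio of FPKM was 7.83, 51.3 and 6.31 in the sham samples and 24.7, 3.53 and 22.1 in the DAC samples (exact two-sided permutation P = 1).

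A red blood cell marker followed the same split as DDAH2. Only HBB and ALAS2 of 6 such markers had a row, and their sum was 38.5, 16.2 and 38.2 FPKM in sham replicate 2, DAC replicate 4 and DAC replicate 6, against 11.2, 11.4 and 5.86 FPKM in sham replicates 1 and 3 and DAC replicate 5. HBB, the beta chain of hemoglobin, made up most of this sum, and ALAS2 was between 0 and 0.571 FPKM. The part of blood in the DDAH values was not tested.

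Of the subunits of soluble guanylate cyclase, GUCY1A1 was upregulated and GUCY1B1 did not pass the test, and the difference between them was itself tested through their ratio. GUCY1A1 (ENSSSCG00000008866, chromosome 8 from 44449232 to 44518135, plus strand) encodes the alpha-1 subunit. Its level was 3.05, 3.86 and 2.77 FPKM in sham replicates 1, 2 and 3, and 5.79, 4.68 and 4.51 FPKM in DAC replicates 4, 5 and 6. Every DAC value was above every sham value. Sham minipigs averaged 3.23 ± 0.568 FPKM (SD, n = 3) and DAC minipigs 4.99 ± 0.697 FPKM (SD, n = 3). GUCY1A1 had a log2 fold change of 0.51 (SE 0.14, unadjusted P = 0.008985, adjusted P = 0.5001 from limma), with a 95% interval from 0.17 to 0.84, and the smallest P of the 9 genes.

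GUCY1B1 (ENSSSCG00000008870, chromosome 8 from 44544179 to 44604704, plus strand) encodes the beta-1 subunit, the partner in the heterodimer, and lies 26.0 kb downstream of GUCY1A1. It was at 2.42, 3.10 and 3.31 FPKM in the sham samples and at 2.53, 3.18 and 3.39 FPKM in the DAC samples, so the ranges of the groups nearly coincided. GUCY1B1 differed by 0.033 on the log2 scale, with a 95% interval from -0.30 to 0.36 (adjusted P = 0.961 from limma). Leaving out sham replicate 1 gave -0.067, and leaving out DAC replicate 6 gave -0.032.

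The GUCY1A1 to GUCY1B1 ratio of FPKM, which no scaling between samples alters, was 1.26, 1.24 and 0.835 in the sham samples and 2.29, 1.47 and 1.33 in the DAC samples. The ratio was higher in every DAC sample than in every sham sample, and DAC replicate 4 was the farthest from the sham group. On the log2 scale the ratio differed by 0.59 between the groups (exact two-sided permutation P = 0.1, which is the smallest P that 3 minipigs against 3 allow, and 0.3 after adjustment over the 3 ratios compared). Without DAC replicate 4 this difference was 0.35. GUCY1A2, the alpha-2 subunit, was between 2.29 and 2.79 FPKM in the sham group and between 1.89 and 2.59 FPKM in the DAC group, and its log2 fold change of -0.09 did not pass the test.

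**Figure D4:**
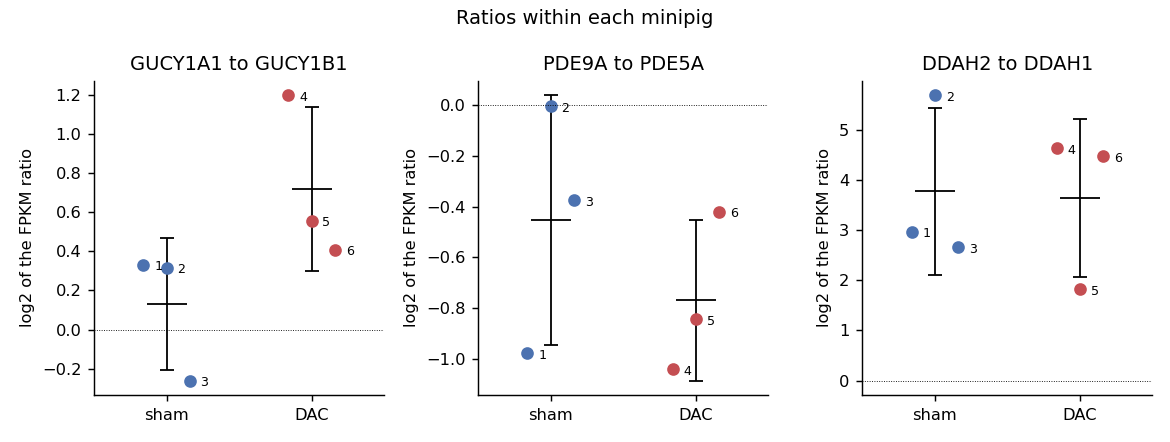
Log2 of the ratio of FPKM between paired genes within each minipig (vertical axes), 1 point per minipig labelled by its replicate number, with the mean and SD of 3 minipigs as black lines and equal levels as a dotted line. The DAC points lie above the sham points for GUCY1A1 to GUCY1B1, and the groups overlap for PDE9A to PDE5A and for DDAH2 to DDAH1.

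Over the 6 samples, the genes whose log2(FPKM + 1), centred on its own mean, ran closest to that of GUCY1A1 were NCAM1, FRMD4B and GCNT1. The root mean square difference from GUCY1A1 was 0.061, 0.073 and 0.075 on the log2 scale. NCAM1, a neural cell adhesion molecule, was at 16.1, 20.7 and 14.9 FPKM in the sham samples and at 26.6, 23.2 and 20.4 FPKM in the DAC samples.

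PDE5A (ENSSSCG00000009106, chromosome 8 from 104270881 to 104420947, plus strand) encodes the cGMP-specific phosphodiesterase that sildenafil inhibits. Its level was 2.10, 1.55 and 2.09 FPKM in sham replicates 1, 2 and 3, and 2.61, 2.81 and 2.50 FPKM in DAC replicates 4, 5 and 6. All DAC values were above all sham values, and sham replicate 2 was the lowest. Sham minipigs averaged 1.91 ± 0.316 FPKM (SD, n = 3) and DAC minipigs 2.64 ± 0.157 FPKM (SD, n = 3). PDE5A had a log2 fold change of 0.33 (SE 0.12, unadjusted P = 0.0306, adjusted P = 0.561 from limma), with a 95% interval from 0.041 to 0.62. It was not called without sham replicate 2 (log2 fold change 0.23, unadjusted P = 0.1004), without DAC replicate 4 (0.33, unadjusted P = 0.0601) or without DAC replicate 5 (0.29, unadjusted P = 0.0801) in the same fit.

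PDE9A (ENSSSCG00000030016, chromosome 13 from 205938334 to 206034981, plus strand), the other cGMP-specific enzyme, was between 1.07 and 1.61 FPKM in the sham group and between 1.27 and 1.87 FPKM in the DAC group. Its log2 fold change was 0.09 with a 95% interval from -0.25 to 0.44 (adjusted P = 0.874 from limma). The value was -0.011 without sham replicate 1. The PDE9A to PDE5A ratio of FPKM was 0.508, 0.998 and 0.771 in the sham samples and 0.486, 0.557 and 0.747 in the DAC samples, and the groups overlapped (exact two-sided permutation P = 0.4, or 0.6 after adjustment over the 3 ratios).

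PRKG1 (ENSSSCG00000010429, chromosome 14 from 97560785 to 98793318, minus strand) encodes cGMP-dependent protein kinase I, and the table does not separate its isoforms. It was at 5.40, 5.58 and 5.68 FPKM in the sham samples, the smallest relative spread of the 9 genes, and at 5.71, 4.45 and 5.31 FPKM in the DAC samples. The groups overlapped, and the lowest value was that of DAC replicate 5, the sample with the highest mitochondrial share. The log2 fold change was -0.10 with a 95% interval from -0.36 to 0.17 (adjusted P = 0.829 from limma), and it was -0.010 without DAC replicate 5. CSTF2T lies within PRKG1 on the opposite strand, and whether the counting used the strand is not given in the sources used here.

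GUCY1A1, PDE5A and PRKG1 are also expressed by smooth muscle cells and pericytes. The 16 markers of these cells summed to between 343 and 389 FPKM in the sham group and between 370.5 and 405 FPKM in the DAC group, and 1 of them, CNN1, was an upregulated and 1, SMTN, a downregulated DEG. Divided by this sum, GUCY1A1 was still called (log2 fold change 0.45, unadjusted P = 0.0142 from limma), PDE5A was not (0.28, unadjusted P = 0.0980), and PRKG1 was at -0.16 (unadjusted P = 0.224). Of 10 fibroblast markers, which include collagens, 4 (COL1A1, COL1A2, COL3A1 and LUM) were upregulated DEGs. The other markers of this list did not pass the test. Their log2 fold changes were -0.022 for TCF21, -0.012 for DCN, 0.080 for DPT, 0.099 for GSN, 0.20 for FBLN1 and 0.24 for PDGFRA. The sum of the 10 did not overlap between the groups, lying between 713 and 835 FPKM in the sham group and between 936 and 1078 FPKM in the DAC group. Divided by the fibroblast sum, GUCY1A1 was at 0.22 (unadjusted P = 0.256 from limma) and PDE5A at 0.087 (unadjusted P = 0.536). The median over all genes tested then shifted to -0.31. In this fit NOS3 and PRKG1 were the NO and cGMP genes called, while 37.7% of all genes tested were called, 98.8% of them downregulated. Division by the smooth muscle and pericyte sum left NOS3 and GUCY1A1 called, with 8.89% of all genes tested. These scalings too were chosen after seeing the data.

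Other genes of NO and cGMP signaling were described with a list of 70 genes in 8 groups. Of these, 57 had a row and 49 were tested, and 1 was an upregulated and 2 were downregulated DEGs, a share of 6.12% against 8.51% of all genes. The order of these shares turned on single samples: it was 14.3% against 9.07% without DAC replicate 6, 12.2% against 9.33% without sham replicate 2, and 6.12% against 5.44% without sham replicate 1. DAC means lay below sham means in 33 of the 49 (67.3%) and in 53.4% of all genes tested, and the median of the log2 fold changes was -0.09, against -0.02 over all genes. The groups did not overlap in 4 of them (NPPB, ASL, PDE2A and NOSIP), which is 8.16% against 14.9% of all genes.

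NPPB (ENSSSCG00000003431, chromosome 6 from 71919495 to 71932254) encodes brain natriuretic peptide, which raises cGMP through the membrane-bound guanylate cyclase NPR1 rather than through NO. It was at 15.5, 43.9 and 43.4 FPKM in the sham samples and at 80.6, 93.3 and 107 FPKM in the DAC samples, a log2 fold change of 1.55 (SE 0.38, adjusted P = 0.482 from limma). Its receptor NPR1 was at 10.05, 17.5 and 18.9 FPKM in the sham samples and at 9.34, 10.1 and 13.4 FPKM in the DAC samples, and it did not pass the test (log2 fold change -0.43). CORIN, the protease that activates natriuretic peptides, was at -0.38 on the same scale, also without passing. NPPA, the gene of atrial natriuretic peptide, had no row. By RT-qPCR, the study reported higher expression of both atrial and brain natriuretic peptide in the DAC group.

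In the arginine group, ASL (ENSSSCG00000007738, chromosome 3 from 16637481 to 16646869), argininosuccinate lyase, which releases arginine from argininosuccinate, was downregulated. It was at 10.4, 12.2 and 14.0 FPKM in the sham samples and at 7.34, 8.13 and 8.73 FPKM in the DAC samples, with no overlap. The log2 fold change of ASL was -0.53 (SE 0.13, unadjusted P = 0.00496, adjusted P = 0.482 from limma). ASS1, argininosuccinate synthase, which makes the substrate of ASL, was at 3.83, 1.798 and 2.56 FPKM in the sham samples and at 1.60, 1.94 and 1.16 FPKM in the DAC samples. ASS1 was named after its values were seen, and its log2 fold change of -0.51 did not pass the test (unadjusted P = 0.0509 from limma). ASS1 was close to the threshold and was called under 4 alternatives: without sham replicate 2 (-0.70, unadjusted P = 0.0126), without DAC replicate 5 (-0.62, unadjusted P = 0.0442), with sample weights (-0.57, unadjusted P = 0.0377) and with no filter on low values (unadjusted P = 0.0494). Leaving out sham replicate 1 brought it to -0.31. The arginine transporters SLC7A1 and SLC7A2 were at 0.023 and 0.026 on the same scale.

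Among the other phosphodiesterases, PDE2A (ENSSSCG00000029388, chromosome 9 from 7136644 to 7227964), which cGMP stimulates and which hydrolyses both cyclic nucleotides, was downregulated. It was at 8.04, 7.39 and 9.88 FPKM in the sham samples and at 6.61, 5.66 and 6.72 FPKM in the DAC samples, so every DAC value was lower. The log2 fold change of PDE2A was -0.36 (SE 0.13, unadjusted P = 0.0301, adjusted P = 0.558 from limma). It was not called without sham replicate 1 (-0.39, unadjusted P = 0.0526), sham replicate 3 (-0.25, unadjusted P = 0.103) or DAC replicate 5 (-0.29, unadjusted P = 0.0893), nor with the variance of each gene on its own (unadjusted P = 0.0511). After division by endothelial markers, with or without CLDN5, ROBO4 and VWF, 0 of the other pathway genes were downregulated DEGs. PDE2A and ASL thus both lost their call as downregulated there. PDE3A, which cGMP inhibits, had by far the highest level of the phosphodiesterases listed here, between 104 and 115 FPKM in the sham group and between 101 and 112 FPKM in the DAC group, and its log2 fold change was -0.05. PDE6D was kept in this group although it is a lipid-binding subunit and not a catalytic enzyme.

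The remaining groups held no DEG with all 6 samples and the fit as described. Of the 9 NO synthase partners tested, NOSTRIN, which takes part in trafficking of the endothelial synthase, had the smallest P with a log2 fold change of 0.43 (unadjusted P = 0.0763 from limma). Without sham replicate 2 NOSTRIN was called (0.65, unadjusted P = 0.00489), and without sham replicate 1 it was at 0.26. NOSIP, another regulator of NO synthase, was at -0.18 (unadjusted P = 0.09995). CAV1 and CAV3, the caveolins that bind the synthases, were at -0.21 and 0.080. For the 6 genes of tetrahydrobiopterin, the synthase cofactor, the median log2 fold change was -0.16, GCH1, the first enzyme of its synthesis, was at -0.14, and PCBD1 had the smallest P (log2 fold change -0.27, unadjusted P = 0.145). PCBD1 was called without DAC replicate 6 (-0.40, unadjusted P = 0.0456), and was at -0.13 without DAC replicate 4 and -0.16 without sham replicate 3. The smallest P among the 5 genes of NO removal was that of ADH5, which reduces S-nitrosoglutathione, at -0.10. ABCC5, a cGMP exporter, was at 0.046.

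Of the 9 substrates and partners of the kinase that were tested, HSPB6, a small heat shock protein, had the smallest P with a log2 fold change of -0.31 (unadjusted P = 0.102 from limma). HSPB6 was called with quantile normalization (-0.41, unadjusted P = 0.0135) and without DAC replicate 5 (-0.45, unadjusted P = 0.0252), and was at -0.20 without sham replicate 3 and -0.19 without DAC replicate 6. IRAG1, which links the kinase to the inositol trisphosphate receptor, was at -0.065, and RGS2 at -0.12. TNNI3 and MYBPC3, sarcomere proteins, were at 0.029 and -0.09.

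**Figure D5:**
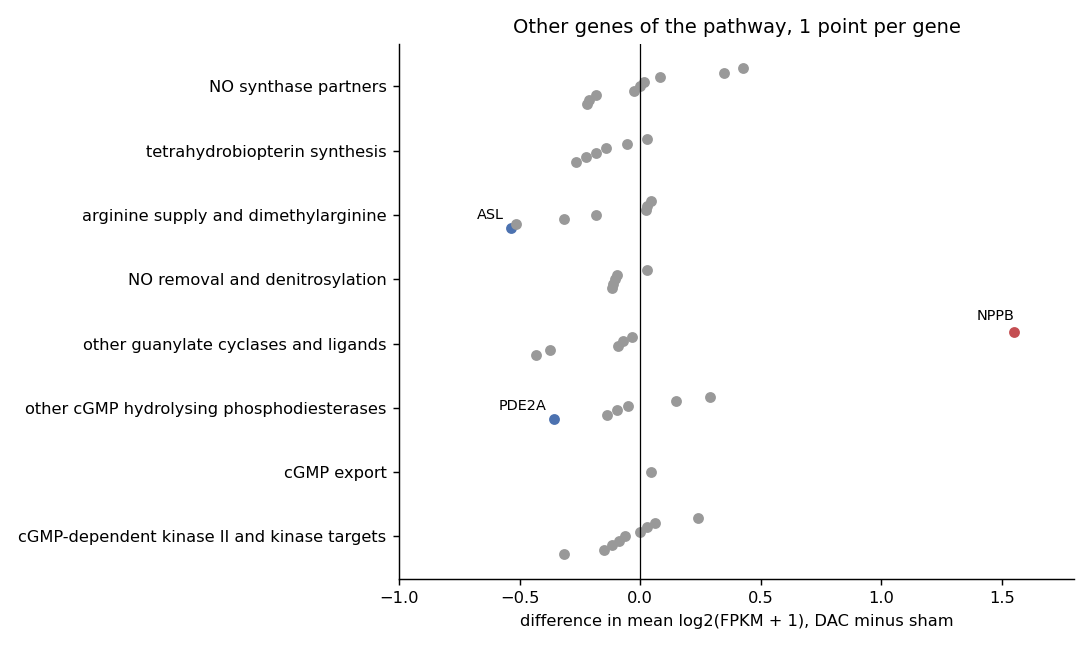
Difference in mean log2(FPKM + 1), DAC minus sham (horizontal axis), for the 49 other pathway genes tested, 1 point per gene, in 8 groups (lines of the vertical axis). The 3 DEGs are colored and named: NPPB lies far to the right at 1.55, and ASL and PDE2A lie to the left at -0.53 and -0.36.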

How the data were processed

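The authors deposited 1 table of FPKM, with a column for each of the 6 minipigs and no pooling. The submitters' processing notes name HISAT2 and susScr11, and the quantification program, its version and how it treated reads that map to several genes are not given in the sources used here. The libraries were made from total RNA with a NEBNext Ultra kit. Depth is unknown: among low genes, no more than 6 of at least 3459 shared a ratio between samples, so whole reads were not recovered. Symbols came from the table, with 520 added from gene identifiers. Of 10714 symbols found once in RefSeq Sscrofa11.1, 10576 had an overlapping position.

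With R 4.3.3 and limma 3.58.1, log2(FPKM + 1) was fitted on group, with a variance trend, in genes of at least 1 FPKM in at least 3 samples. The study's threshold (unadjusted P under 0.05) called DEGs, with Benjamini-Hochberg adjustment over all 11029 genes. Ratios between genes were compared by exact two-sided permutation tests over the 6 samples. Figures used matplotlib 3.10.9. The fit was tested on simulated data.

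The NO and cGMP genes, the other lists and the alternatives were chosen with earlier results of these data known. Named are the 10 genes chosen, DEGs and the smallest P of each group of other pathway genes, the 3 genes closest to the smallest-P gene, and, chosen after their values were seen, ASS1 and the further pathway and marker genes given as context. Replicates are separate minipigs. No batch is named in the sources used here. No sequences are printed, since no file used here holds them.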

Additional observations from a re-analysis of the deposited data

How the results depend on the processing

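No paired analysis was run, because the study assigned the minipigs to the sham and DAC groups at random and describes no pairs. The direction of GUCY1A1, PDE5A, NOS3, NOS2 and PRKG1 was kept under all alternatives other than division by marker sums. Under division by marker sums, direction was followed only in the fits whose log2 fold changes are given here. These do not include PRKG1 divided by endothelial markers, so no direction is claimed for it there. GUCY1A1 lost its call under 1 alternative, division by fibroblast markers (0.22). The log2 fold change of NOS3 lost its call with median scaling (-0.59), quantile normalization (-0.58), the variance of each gene on its own (-0.61), sample weights (-0.63), mitochondrially encoded genes left out (-0.57), and division by endothelial markers (-0.33, or -0.47 without CLDN5, ROBO4 and VWF). PDE5A lost its call when divided by smooth muscle and pericyte markers (0.28) or by fibroblast markers (0.087). After division by all endothelial markers PDE5A was called, and after division by endothelial markers without CLDN5, ROBO4 and VWF it was not. For most of these the cause was not tested; the marker sums are given with the results. A minimum of 5 FPKM left 6271 genes and 3 of the 9 NO and cGMP genes to test, with 579 DEGs and NOS3 as the 1 gene called. The DDAH2 to DDAH1 log2 ratio difference, -0.13 in all samples, was 0.043 as a ratio of FPKM + 1.

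With 1 sample left out in turn, DEGs numbered from 600 (without sham replicate 1) to 1029 (without sham replicate 2), NO and cGMP genes called from 1 (without DAC replicate 4 or 5) to 3, and other pathway genes called from 2 (without sham replicate 3) to 7 (without DAC replicate 6), with 6 without sham replicate 2. Among the alternatives with all samples, the share of other pathway genes called was above that of all genes with quantile normalization (8.16% against 8.04%) and after division by smooth muscle and pericyte markers (10.2% against 8.89%) or by fibroblast markers (51.0% against 37.7%). When 1 sample was left out in turn, the log2 fold change was from -0.97 to -0.19 for NOS2 and -0.89 to -0.35 for NOS3. It was from -0.17 to 0.30 for DDAH1, -0.028 to 0.53 for DDAH2 and 0.41 to 0.61 for GUCY1A1. The range was -0.067 to 0.13 for GUCY1B1, 0.23 to 0.38 for PDE5A, -0.011 to 0.18 for PDE9A and -0.049 to 0.16 for ABCC5. The ratio differences with 1 sample left out were from 0.35 to 0.75 (GUCY1A1 to GUCY1B1), -0.58 to -0.093 (PDE9A to PDE5A) and -0.69 to 0.83 (DDAH2 to DDAH1). The share of downregulated DEGs was 61.9%, 44.8% without the mitochondrially encoded genes, 52.8% with median scaling and 52.9% with quantile normalization.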
